A study of Arabidopsis thaliana with 12 samples.

Results

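Phosphoribulokinase (PRK, AT1G32060), pyruvate orthophosphate dikinase (PPDK, AT4G15530), a sucrose phosphate synthase (ATSPS4F, AT4G10120), the thiamine synthesis gene THIC (AT2G29630) and the histidine synthesis gene AT-HF (AT4G26900) are 5 genes of primary metabolism. Each was represented on the array by 1 probe annotated to that gene alone, and they are 5 of the 691 genes with such a probe. They were measured in 6 samples of stem material and 6 samples of leaves of wild-type Arabidopsis thaliana, ecotype Columbia 0, an unmutated laboratory strain. No treatment, plant age or time of harvest is given in the labels, which number the samples of each tissue 1 to 6. The labels name no separate plants or batches, and part of the spread between samples may be technical. The genes were chosen by their roles with their measured stem and leaf intensities in view, so the differences between the tissues are given as a description and not as a test.

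The 5 enzymes stand at different points of plastid and cytosolic metabolism. PRK makes ribulose bisphosphate, the acceptor of carbon dioxide in the Calvin cycle, and acts only in that cycle. Sucrose phosphate synthase joins UDP-glucose and fructose 6-phosphate in the cytosol and so feeds the sugar that leaves export through the phloem to stems, roots and seeds. PPDK interconverts pyruvate and phosphoenolpyruvate; it serves the carbon pump of C4 plants, and in Arabidopsis, a C3 plant, it has been linked to the movement of nitrogen out of ageing leaves. THIC is the plastid enzyme that makes the pyrimidine part of thiamine (vitamin B1), and its transcript carries a riboswitch that senses thiamine pyrophosphate. AT-HF, also called HISN4, is a plastid enzyme that joins a glutaminase and a cyclase to make the imidazole ring of histidine.

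Stem arrays had 479 to 536 probes at 0 and leaf arrays 658 to 785, and the median deposited intensity was 0.154 to 0.324 in stem and 0.104 to 0.154 in leaf. Values below are either deposited intensities or log2 intensities after quantile normalization, in which every array is given the same distribution. Within a tissue, samples 1 and 2, samples 3 and 4 and samples 5 and 6 were very alike, with rank correlations over 1870 probes of 0.97 to 0.98 in stem and 0.86 to 0.89 in leaf. Other pairs reached 0.82 to 0.90 in stem and 0.68 to 0.81 in leaf. The labels do not say whether such a pair is 1 sample measured again; if it is, the n of 6 given below stands for 3 independent samples, and the SDs and SEs may be too small. Leaf samples 1 and 2 stood apart, correlating with stem at 0.70 to 0.82 against 0.58 to 0.68 for leaf samples 3 to 6. Of 11 leaf marker genes 4 had a probe of their own, PSBW, PSBY, PSAN and LHB1B2 of the photosynthetic apparatus. In normalized values PSBW was past the threshold of the limma fit (adjusted p under 0.05) as higher in stem, with a probe that reached 100, the limit of the scale, in stem samples 1 and 2, and the other 3 were not past it. With each array centred on its median PSBW was not past it, and LHB1B2 (-1.22) and PSBY (-0.89) were past it as lower in stem (log2 differences). In deposited values PSBW (1.54) was past it as higher and LHB1B2 (-0.65) as lower in stem. None of 13 marker genes of vascular and woody stem tissue had one, 0 in all, so the stem label could not be checked against them.

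THIC, PPDK and AT-HF were lower in stem than in leaf, and PRK and ATSPS4F lay close to the same quantile-normalized level in both tissues. AT-HF was 3.82-fold, THIC 2.91-fold and PPDK 2.11-fold lower in stem after normalization, whereas PRK and ATSPS4F were each lower by a factor of 1.07. Fewer cells that express a gene and less RNA per cell cannot be told apart in such tissue samples. In the limma fit over all probes, 3 of the 5 genes were past an adjusted p of 0.05 as lower in stem and 0 as higher, where 10.1% of the 2657 tested probes were past it as lower and 14.1% as higher. With each such pair of samples averaged, 0 of the 5 genes were past the threshold, where 0.588% of probes were as lower (limma, 42 of 2891 in either direction, and 602 at an unadjusted p under 0.05). Since this contrast was in view when the genes were chosen, nothing is read from that count. The normalized values of the tissues did not overlap for the same 3 genes, nor for 6.62% of tested probes with stem lower. The median difference of the 5 genes was -1.08 (log2, stem minus leaf) and that of all tested probes 0.13.

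**Figure D1:**
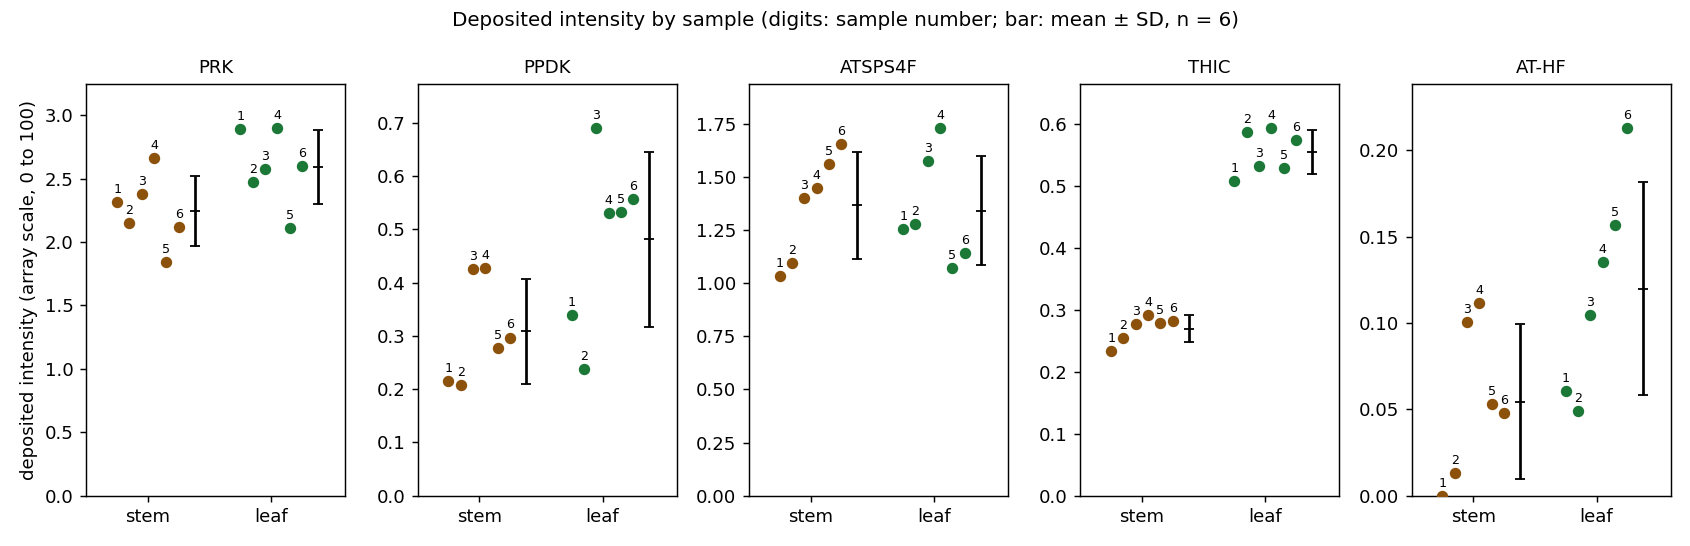
Deposited intensity (vertical axis, array scale from 0 to 100) of each enzyme gene in 6 stem samples (brown, left) and 6 leaf samples (green, right), with the sample number above each point and the mean ± SD beside it. THIC is the gene whose stem points, 0.233 to 0.293, all lie below its leaf points, 0.508 to 0.595; the tissues overlap in the other 4 panels.

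PRK, the Calvin cycle enzyme, differed little between stem and leaf in deposited and quantile-normalized values, but was lower in stem, at -0.78 ± 0.21 (log2, stem minus leaf, SE), with each array centred on its median. Its deposited intensity had a lowest value of 1.85, a median of 2.23 and a highest value of 2.66 in stem, against 2.11, 2.59 and 2.90 in leaf. The tissues overlapped, although within each of the 6 numbers the stem sample was below its leaf partner, with ratios of stem to leaf of 0.800 to 0.924. After normalization PRK averaged 1.21 ± 0.19 in stem and 1.30 ± 0.19 in leaf (log2, SD, n = 6 each), a difference of -0.096 ± 0.15 (SE). The stem sample was then below its partner in 3 of 6 numbers, and the sign depended on the pair of numbers: the difference was -0.073 in numbers 1 and 2, 0.13 in 3 and 4 and -0.35 in 5 and 6. The residual SD of PRK, its spread within tissues, was 0.191. It was smaller than that of most probes of like brightness, since only 5.45% of the 532 probes in the brightest of 5 classes had a smaller one, and their median was 0.417.

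In deposited and quantile-normalized values ATSPS4F, the sucrose synthesis gene, was lower in stem in numbers 1 to 4 and higher in 5 and 6. Its deposited intensity ran from 1.04 over a median of 1.42 to 1.65 in stem, and from 1.07 over a median of 1.27 to 1.73 in leaf, so the ranges were nearly the same. In numbers 1 to 4 the stem sample had 0.826 to 0.888 times the intensity of its leaf partner, but in numbers 5 and 6 it had 1.46 and 1.45 times that intensity. In normalized values the stem samples 5 and 6, at 0.57 and 0.70, were above all 6 leaf samples (0.38 to 0.55), and stem samples 1 to 4, at 0.17 to 0.31, were below all of them. The differences of the 3 pairs of numbers were -0.25, -0.28 and 0.23, whereas the samples within a pair were at most 0.12 apart in stem and 0.13 in leaf. The mean difference of -0.100 ± 0.15 (SE) therefore joins values of opposite sign. Normalized values of ATSPS4F were 0.36 ± 0.22 in stem and 0.46 ± 0.063 in leaf (SD, n = 6 each), whereas the SDs of the deposited values, 0.251 in stem and 0.258 in leaf, were nearly equal.

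PPDK was lower in stem in each of the 6 numbers, with a gap that differed among them. Its deposited intensity had a lowest value of 0.207, a median of 0.288 and a highest value of 0.428 in stem, against 0.237, 0.532 and 0.691 in leaf. These ranges overlapped: stem samples 3 and 4 (0.427 and 0.428) were above leaf samples 1 and 2 (0.339 and 0.237). Stem samples 5 and 6 (0.278 and 0.297) were above leaf sample 2, and no stem sample reached leaf samples 3 to 6. After normalization the stem samples drew together at -2.03 ± 0.049, while leaf stayed spread at -0.95 ± 0.53 (log2, SD, n = 6 each), and the tissues no longer overlapped. The fitted difference was -1.08 ± 0.25 (SE). Leaf samples 1 and 2 were the lowest of their tissue at -1.31 and -1.77, and leaf samples 5 and 6 the highest at -0.45 and -0.42. The difference was accordingly -0.55 in numbers 1 and 2, -1.13 in 3 and 4 and -1.57 in 5 and 6. Without leaf samples 1 and 2 it was -1.36.

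THIC was lower in stem in all 6 numbers and under all 3 scalings of the arrays. Its deposited intensity ran from 0.233 over a median of 0.278 to 0.293 in stem, and from 0.508 over a median of 0.554 to 0.595 in leaf. Every stem sample was below every leaf sample, with ratios of stem to leaf between 0.432 and 0.526 in the 6 numbers. Such a lack of overlap in deposited values, with stem lower, was seen in 4.06% of tested probes. The deposited means were 0.270 ± 0.022 in stem and 0.555 ± 0.036 in leaf (SD, n = 6 each). Normalization widened the spread within tissues of THIC, to -2.22 ± 0.41 in stem and -0.68 ± 0.26 in leaf (log2, SD, n = 6 each). The difference was -1.54 ± 0.24 (SE). The pairs of numbers gave -1.24, -1.77 and -1.62, and the difference without leaf samples 1 and 2 was -1.51. Of probes above 0 in all 12 samples, 16.6% were lower in stem in all 6 numbers, as were THIC and PPDK.

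AT-HF was lower in stem by the widest margin of the 5 genes after normalization. In deposited values, with the 0 of stem sample 1 left out, AT-HF differed by -1.03 ± 0.62 and THIC by -1.04 ± 0.18 (log2, SE), too close to rank. With that 0 included, the mean deposited intensity of leaf was 2.21 times that of stem for AT-HF and 2.06 times for THIC. AT-HF was measured near the bottom of the intensity scale, below the median of its own array in 10 of 12 samples. In stem its deposited intensity was at 0 in sample 1, with a median of 0.0503 and a highest value of 0.112, and in leaf it ran from 0.0489 over a median of 0.120 to 0.213. Whether the 0 is a measured absence of signal or a failed spot is not recorded, and it was treated as missing in the fit. Stem samples 3 and 4 (0.100 and 0.112) were above leaf samples 1 and 2 (0.0606 and 0.0489). Stem sample 4 was also above leaf sample 3 (0.105), and stem sample 5 (0.0529) above leaf sample 2, so the deposited values overlapped. The normalized values did not, with -4.84 ± 0.50 in 5 stem samples (SD, n = 5) and -2.91 ± 0.86 in leaf (SD, n = 6). The fitted difference was -1.93 ± 0.48 (SE). The 5 numbers with both values differed by -1.44 to -3.08 in normalized values, most in numbers 5 and 6, where the mean difference was -2.84. In deposited values the ratio of stem to leaf was 0.961 and 0.824 in numbers 3 and 4, against 0.269, 0.338 and 0.224 in numbers 2, 5 and 6, so the gap in numbers 3 and 4 was small before normalization. Without leaf samples 1 and 2 the difference was -2.32.

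**Figure D2:**
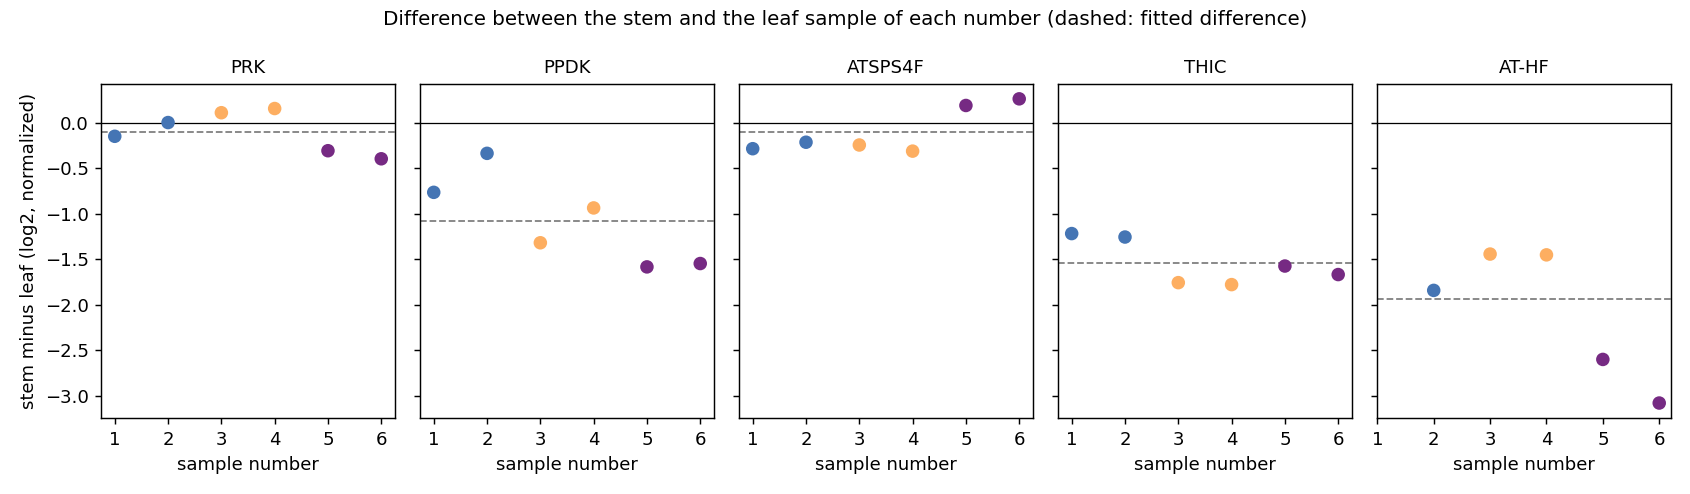
Difference between the stem and the leaf sample of the same number (vertical axis, log2 of normalized intensity) for each enzyme gene, with numbers 1 and 2 in blue, 3 and 4 in orange and 5 and 6 in purple; the dashed line is the fitted difference. THIC lies between -1.22 and -1.78 in all 6 numbers, ATSPS4F is below 0 in numbers 1 to 4 and above it in 5 and 6, and AT-HF has no value in number 1.

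In normalized values PPDK and AT-HF were both lowest in leaf samples 1 and 2 and highest in 5 and 6, with AT-HF at -3.66 and -3.85 in the first pair and at -2.07 and -1.69 in the last. Leaf samples 3 and 4 stood in opposite order for the 2 genes, and in deposited values PPDK was highest in leaf sample 3. THIC did not share the low normalized values of leaf samples 1 and 2. Its lowest leaf values on that scale were those of samples 3 and 4, at -1.02 and -0.92. Its lowest stem values were also those of samples 3 and 4, at -2.78 and -2.70. In deposited values none of these 4 samples was the lowest of its tissue for THIC. Sample 1 was the lowest there, at 0.508 in leaf and 0.233 in stem, whereas leaf sample 2 was at 0.588. The stem samples of PPDK spanned 0.13 on the normalized scale, against 0.96 for those of THIC. This order was reversed in deposited values, where stem ran from 0.207 to 0.428 for PPDK and from 0.233 to 0.293 for THIC.

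**Figure D3:**
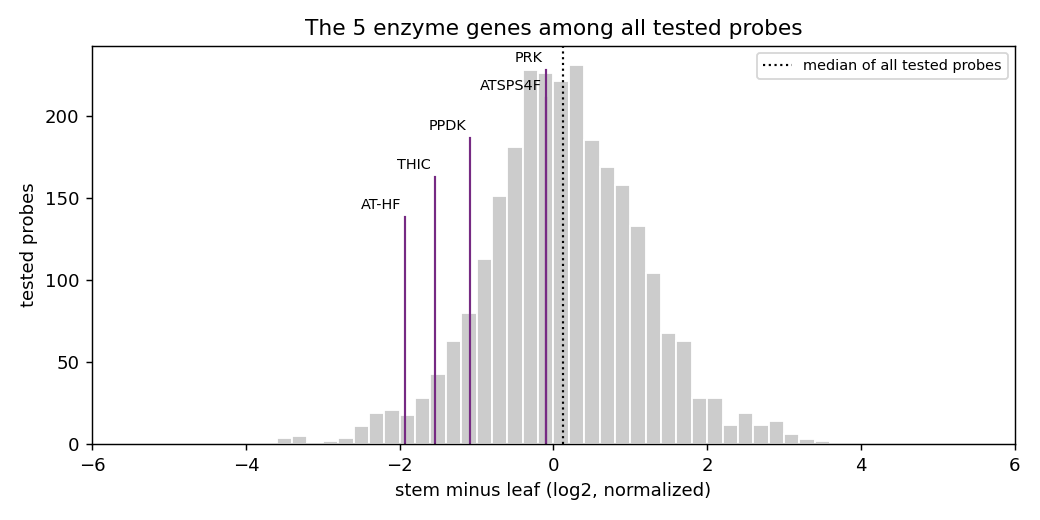
Histogram of the stem minus leaf difference (horizontal axis, log2 of normalized intensity) of all 2657 tested probes, with the 5 enzyme genes marked by purple lines and the median of all probes, 0.13, by a dotted line. AT-HF, THIC and PPDK lie in the lower tail, where 2.82%, 4.70% and 10.05% of probes had a lower difference, and the lines of PRK and ATSPS4F coincide near 0.

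The scaling of the arrays set how PRK and ATSPS4F read. It mattered less for THIC and PPDK when these were taken relative to the median of all tested probes. The median difference of all tested probes was 0.62 in deposited values, 0.13 after quantile normalization and 0.047 with each array centred on its median. Relative to that median, THIC was at -1.67, -1.67 and -1.66 in deposited, quantile-normalized and median-centred values, and PPDK at -1.24, -1.21 and -1.24. AT-HF was at -1.66, -2.06 and -1.74. PRK was at -0.83 in deposited values and -0.83 with median centring, but at -0.22 after quantile normalization, and ATSPS4F was at -0.60, -0.60 and -0.23 in deposited, median-centred and quantile-normalized values. Both probes lay in the brightest of the 5 classes. Without any reference to the median, THIC differed by -1.04, -1.54 and -1.62 in deposited, quantile-normalized and median-centred values. PPDK differed by -0.62, -1.08 and -1.19 in the same order, so both moved with the scaling. ATSPS4F, likewise without that reference, differed by 0.025 ± 0.18 (SE) in deposited values and by -0.55 ± 0.20 with median centring. PRK differed by -0.21 ± 0.14 in deposited values and, as given above, by more with median centring. Whether these 2 genes are even between the tissues or lower in stem thus depends on the scaling. With median centring 4 of the 5 genes, PRK among them, were past the threshold as lower in stem, where 11.9% of probes were, and in deposited values THIC alone was, where 6.02% of probes were.

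**Figure D4:**
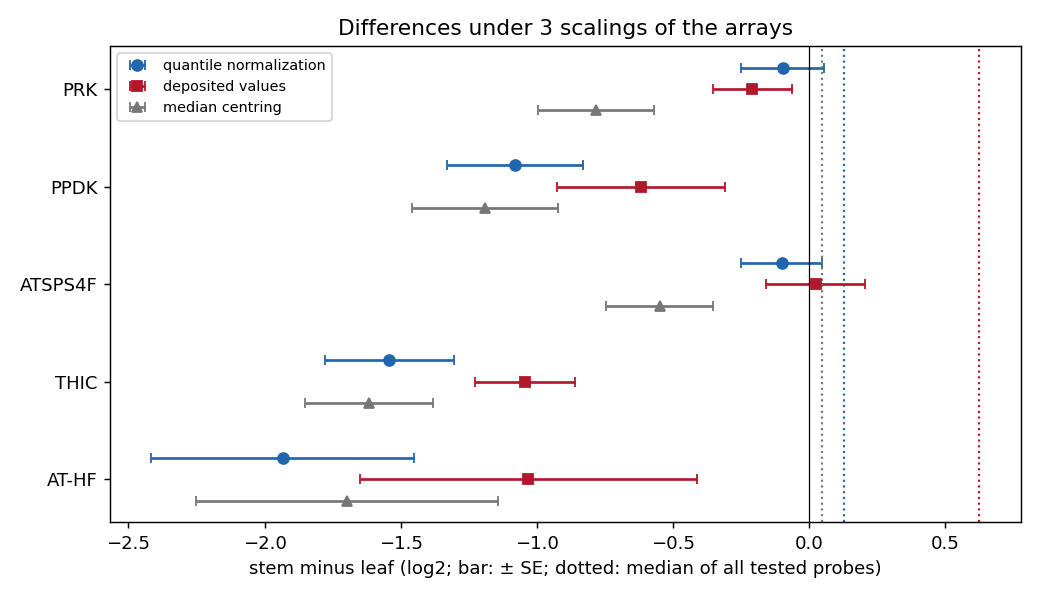
Stem minus leaf difference (horizontal axis, log2; bars are ± SE) of each enzyme gene after quantile normalization (blue circles), in deposited values (red squares) and with each array centred on its median (grey triangles); dotted lines of the same colours mark the median of all tested probes. THIC, PPDK and AT-HF lie left of 0 under all 3 scalings, and PRK and ATSPS4F lie left of -0.5 with median centring alone.

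The pathways around these enzymes were barely covered. The lists for the Calvin cycle, sucrose, starch, phosphoenolpyruvate and pyruvate conversion, thiamine and histidine hold 108 genes, of which 6 were on a single-gene probe and 5 passed the filter on zeros, the 5 genes described here. Of 25 Calvin cycle genes, SBPASE (AT3G55800), which regenerates the carbon dioxide acceptor upstream of PRK, was the only other one with a probe. SBPASE was listed at 0 in 10 of 12 samples, with 0.00747 in stem sample 1 and 0.0560 in leaf sample 4, and was not tested. None of the other 6 thiamine genes, 10 histidine genes and 22 sucrose genes was measured by a probe of its own, so the values of THIC, AT-HF and ATSPS4F stand for single genes and not for their pathways.

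Among 350 other genes with all 12 values, those whose normalized values were most like each enzyme gene were named by Pearson's r. The samples fall into tissues and pairs of numbers, so these coefficients describe the arrays and carry no test. CML30 (AT2G15680), a calmodulin-like gene, was the gene most like PPDK (r = 0.95 over 12 samples) and the second most like AT-HF (r = 0.95 over 11 samples). AT2G39360 followed for PPDK at 0.92, and AT1G07850 led for AT-HF at 0.95. THIC was most like AT3G04210 and PRA1.B3 (AT5G05380), both at 0.97 over 12 samples. For THIC 3.71% of the 350 genes exceeded 0.9, for PPDK 2.57% and for AT-HF 1.14%. No gene exceeded 0.9 for PRK, whose closest were AT4G00870 at 0.81 and AT4G08280 at 0.72, or for ATSPS4F, whose closest were AT4G29890 at 0.85 and AT3G26630 at 0.69.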

How the data were processed

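Total RNA of stem and of leaf was measured on single-channel arrays, and the tissue and number of each sample were taken from its title. The authors deposited a table of linear array intensity for 3439 probes and 12 samples, on a scale that ends at 100 as seen in the values. The sources used here do not give the background correction, the scaling, the meaning of an exact 0, the array chemistry or a genome build. Genes were named from the platform's annotation, in which 692 probes had 1 gene, 870 had several and 1877 were unnamed here, and were updated by gene ID against RefSeq (TAIR10.1), where 2 single-gene probes were not found.

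Zeros were set to missing, intensity was converted to log2 and the arrays were quantile normalized, since their log2 medians spanned 1.42. The 2657 probes with at least 4 values above 0 in each tissue were fitted in limma 3.58.1 (R 4.3.3, statmod 1.5.0; lmFit, eBayes, trend and robust variance; p two-sided). The p-values of all of them were adjusted by Benjamini and Hochberg's method, with a threshold of 0.05. The number of arrays limits the precision. Each gene was taken from its brightest probe by mean deposited intensity. The fit was tested on simulated data with known changes and independent noise in each array. That simulation could not show what the likeness of neighbouring samples does to the calls. Figures were drawn with matplotlib 3.10.9 (Python 3.11.15).

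The enzyme genes, the pathway and marker lists and the alternatives were chosen with earlier results of these data known, so the differences between stem and leaf of the 5 genes are described without a test. The other named genes are all list genes with a probe of their own, and for each enzyme gene the 2 genes whose normalized values correlate most with it. The alternatives were no normalization, median centring, other treatments of zeros, other filters, a fit without trend and robust variance, the number as a block, samples left out, neighbouring numbers averaged and single pairs of numbers. Each enzyme gene had 1 probe, so no other probe could be tried. Over 1870 probes, the deviations from the tissue mean of a stem sample and its equally numbered leaf sample correlated at 0.17 to 0.26, against -0.17 to 0.15 for different numbers. All 6 exceed the highest value for different numbers, so the numbers were taken to pair the samples in the comparisons by number. The main fit leaves this pairing out, and only the alternative with the number as a block includes it. That pairing comes from the data, since the labels give only the shared number.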

Additional observations from a re-analysis of the deposited data

How the results depend on the processing

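Of 643 probes past the threshold, 374 were higher and 269 lower in stem; the split was 675 and 160 in deposited values and 257 and 315 with median centring. Leaving out 1 number gave 374 to 655 probes: 422, 404, 374 and 391 without number 3, 4, 5 or 6, and 655 and 647 without 1 or 2. Numbers 1 and 2 alone gave 466 probes, 3 and 4 alone 896 and 5 and 6 alone 926. Leaving out numbers 1 and 2 together gave 859, so some fits of fewer samples called more probes than the fit of all 12. With neighbouring numbers averaged 42 of 2891 passed. With the replicate number as a block 708 passed; the block moved AT-HF to -2.08 and left the differences of the other 4 enzyme genes as they were, and it changed none of the 5 calls. All alternatives that gave a value kept PPDK, THIC and AT-HF lower in stem. Their differences moved beyond the spread between samples in deposited values (-0.62, -1.04 and -1.03 in that order), in numbers 1 and 2 alone for PPDK (-0.57), in numbers 5 and 6 alone for PPDK (-1.60) and AT-HF (-2.81), and for AT-HF with zeros at a floor of 0.5 times the lowest value above 0 (-5.40). With zeros at the 5th percentile, chosen after seeing the data as was leaving out leaf samples 1 and 2, AT-HF was at -2.37. PRK moved to -0.78 with median centring, 0.11 in numbers 3 and 4 alone and -0.34 in numbers 5 and 6 alone, and ATSPS4F to -0.55 with median centring and 0.24 in numbers 5 and 6 alone. In deposited values 1 enzyme gene (THIC) was past the threshold as lower in stem, where 6.02% of probes were. With median centring 4 were (PRK added), where 11.9% of probes were. With neighbouring numbers averaged 0 of 5 were, where 0.588% of probes were. At an unadjusted p under 0.05, limma then gave 602 probes in either direction. AT-HF has no value in numbers 1 and 2 alone or among probes above 0 in all 12 samples.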
